A study of Mus musculus with 8 samples.

Results

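Canonical Wnt signalling switches on its own inhibitors, and 10 genes of this negative feedback were examined in Lgr5-GFP+ intestinal stem cells: Axin2 and Nkd1 inside the cell, Rnf43, Znrf3 and Apcdd1 at the membrane, Notum, Wif1, Dkk2 and Dkk3 outside it, and the transcription factor Sp5. Members were found by gene symbol in the deposited table of scaled counts and joined by Ensembl identifier to the table of raw counts. Of the 10 genes, 9 were among the 25485 genes of the scaled table, and all 10 were among the 53801 genes of the count table, where Dkk2 was matched through a separate list of gene names.

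When a Wnt ligand binds Frizzled and Lrp receptors, the complex that degrades β-catenin is held inactive, and β-catenin reaches the nucleus and activates target genes with TCF and LEF factors. Some of these targets dampen the pathway again at the level of the ligand, the receptor or the degradation complex. In the intestinal crypt this signalling maintains the stem cells, and negative feedback genes are widely used as readouts of it.

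The libraries came from 8 mice, of which 4 were labelled β-cat GOF; Mll1-/- and the other 4 β-cat GOF; Mll1+/-. All 8 carried the gain-of-function β-catenin allele, in which exon 3 is floxed, so the comparison is between homozygous and heterozygous loss of Mll1 on this background, and no library without the β-catenin mutation was analysed here. Mutagenesis was induced at 4 to 6 weeks of age with tamoxifen at 50 mg per kg on 3 consecutive days, through a Cre recombinase expressed from the Lgr5 locus together with GFP, and crypts were taken 10 days later. Cells were stained with EpCAM, CD45 and CD24 antibodies and sorted as Lgr5-GFP+. GFP marks expression of the Lgr5 locus, not recombination, so cells that escaped recombination were not removed by the sort. The share of recombined cells in each library was not measured and may differ between the labels.

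Between 14468751 and 16847793 reads per library were counted on genes. Mll1 is encoded by Kmt2a, which was at 59.4, 62.4, 78.2 and 53.4 CPM (a count divided by the library total after TMM scaling, per 1000000 reads) in mice J_7075, J_7096, J_7135 and J_7136 labelled Mll1-/-, and at 50.1, 64.7, 51.0 and 48.8 CPM in mice J_7079, J_7100, J_7134 and J_7139 labelled Mll1+/- (log2 fold change 0.24, SE 0.17, edgeR adjusted p = 0.710). The Kmt2a count was thus not lower in the libraries labelled Mll1-/-, and libraries are named here by their labels for this reason. From here on, values per library are given in this order of mice. The counts cover whole genes and do not separate exons. Mouse J_7135 stood apart from the other libraries, with a highest Spearman correlation over genes of 0.909 to any other library, and it held both Xist (207 CPM) and the Y-linked Ddx3y (19.8 CPM). Lgr5 was present in all libraries (231 to 276 CPM in those labelled Mll1-/- and 214 to 307 CPM in the others).

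The promoter sequences of a pair of members are shown because both are established target genes of the pathway, 1 with and 1 without a gap between the labelled genotypes, and because their annotated start agrees between RefSeq and the count table. Each window holds the 250 bases before the RefSeq start (GRCm38.p6, the mm10 assembly), 5′ to 3′ on the strand of the gene. Axin2 lies at chr11:108920099-108920348 and Sp5 at chr2:70474673-70474922, both on the plus strand. Capitals mark the words CTTTGAT and CTTTGTT on either strand, which are forms of the core to which TCF and LEF factors bind. Other forms of this core were not searched.
Axin2 promoter: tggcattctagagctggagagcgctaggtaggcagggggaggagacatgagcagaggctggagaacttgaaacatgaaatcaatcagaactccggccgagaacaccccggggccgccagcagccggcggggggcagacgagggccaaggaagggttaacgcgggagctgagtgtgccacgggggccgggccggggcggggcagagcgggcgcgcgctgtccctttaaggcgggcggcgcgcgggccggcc
Sp5 promoter: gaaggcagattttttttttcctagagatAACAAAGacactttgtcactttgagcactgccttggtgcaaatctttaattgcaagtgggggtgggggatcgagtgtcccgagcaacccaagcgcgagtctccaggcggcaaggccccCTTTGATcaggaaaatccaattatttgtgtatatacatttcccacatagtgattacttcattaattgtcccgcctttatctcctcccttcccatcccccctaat
The Sp5 window held 2 matches, CTTTGAT on the gene's strand from 104 to 98 bases before the start and CTTTGTT on the opposite strand from 222 to 216 bases before it. RefSeq windows were found for 6 of the 10 members (Axin2, Nkd1, Dkk2, Rnf43, Sp5 and Wif1), and the other 5 of these held no match. Of 32851 windows of the same length in the table, 8.06% held at least 1 of the words. A match is a description of the letters, not evidence of binding. The absence of a match in these 250 bases does not show that a gene lacks binding sites. Notum, Dkk3, Znrf3 and Apcdd1 had no window.

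Per length, Axin2 was the most abundant feedback gene, with 35.5 ± 7.22 CPM per kb of exon over the 8 libraries (SD, n = 8). Rnf43 followed with 20.6 ± 3.46, Sp5 with 15.4 ± 3.36 and Nkd1 with 10.0 ± 5.23 CPM per kb. Notum and Znrf3 had similar means over the 8 libraries, at 4.56 ± 4.48 and 4.47 ± 1.14, and Dkk3 was at 1.50 ± 1.85. By label Notum and Znrf3 differed, with means of 8.09 and 5.21 in the libraries labelled Mll1-/-. In those labelled Mll1+/- the means were 1.04 and 3.73 CPM per kb. Notum was above Znrf3 in 2 of 8 libraries. The ranges of Axin2 and Rnf43 did not overlap, whereas every other pair of neighbours in this order overlapped in range over the 8 libraries. Within single libraries Axin2 was above Rnf43, and Rnf43 above Sp5, in 8 of 8. Wif1, Apcdd1 and Dkk2 formed the bottom of the order, at 0.256 ± 0.424, 0.224 ± 0.140 and 0.0184 ± 0.0235 CPM per kb.

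**Figure D1:**
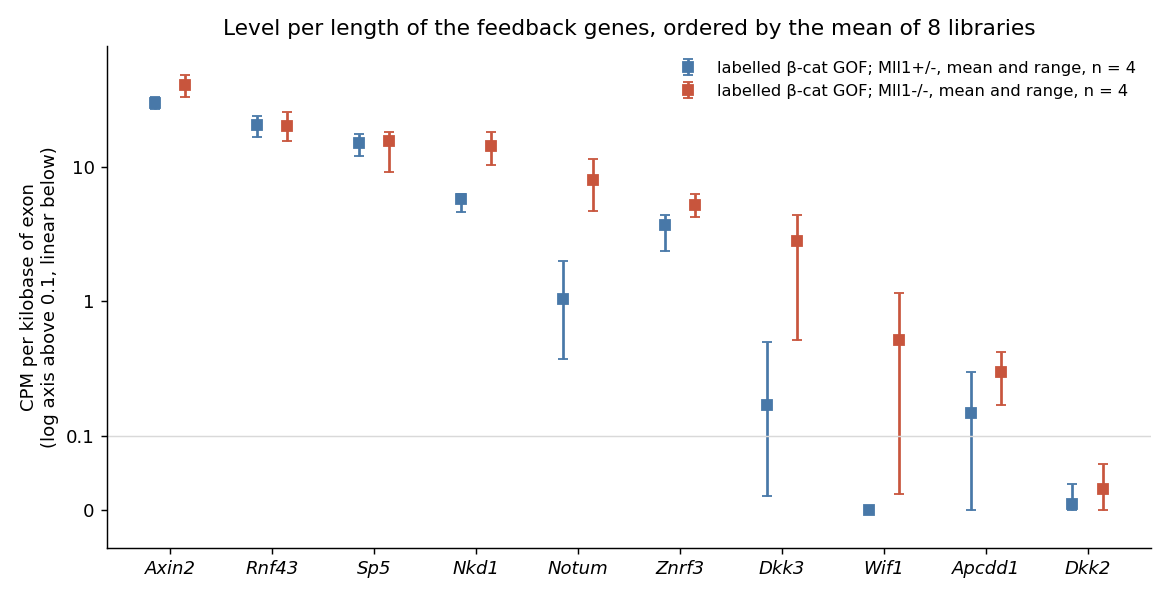
Level of each feedback gene per length (CPM per kb, log axis above 0.1), as the mean of the 4 libraries of each labelled genotype with bars from the lowest to the highest library. Axin2, Rnf43 and Sp5 lead the order, and the means of the genotypes lie furthest apart for Notum, Dkk3 and Wif1.

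To ask whether the feedback genes differed between the labelled genotypes, the 16445 genes that passed a filter on low counts were tested with edgeR's quasi-likelihood method (two-sided, Benjamini-Hochberg adjusted). None of the 8 members among them had an adjusted p under 0.1, where 0.0851% of all genes tested did. At an unadjusted p under 0.05, 4 members were higher in the libraries labelled Mll1-/- (Axin2, Nkd1, Notum and Dkk3), against 5.40% of all genes tested, and no member was lower. The same 4 members had every library labelled Mll1-/- above every library labelled Mll1+/-, against 3.34% of all genes tested. Dkk3 passed the filter only through the libraries in which it was high, and Wif1 and Dkk2 did not pass it. The members were also chosen with earlier results of these data known, so these counts are a description. With other tools the call differed. DESeq2 called 3 members (Nkd1, Notum and Dkk3, DESeq2 adjusted p = 1.5e-05, 5.16e-05 and 0.00115), where it called 2.74% of all genes. limma-voom called 2 (Nkd1 and Notum, limma adjusted p = 0.0625 and 0.0854), where it called 0.626% of all genes. In such bulk samples a larger share of expressing cells and more RNA per cell cannot be told apart.

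**Figure D2:**
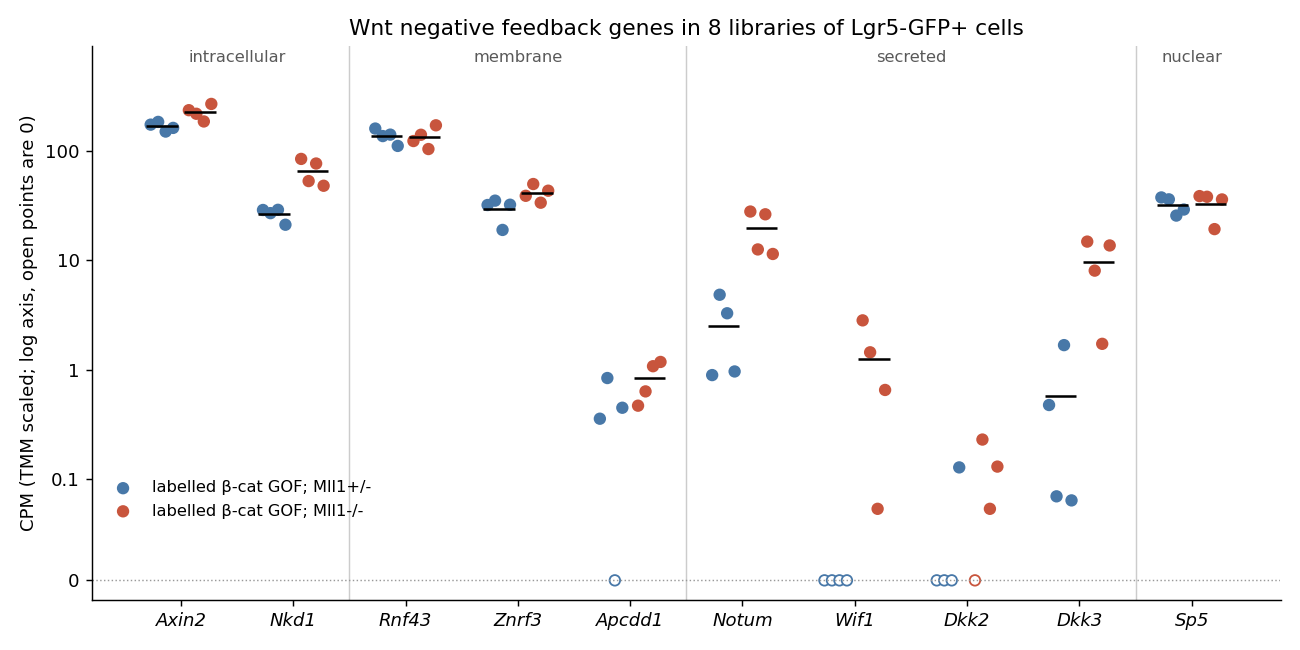
CPM of the 10 feedback genes in each library (log axis, open points at 0), grouped by where the product acts, with a bar at the group mean where no library is at 0. The 4 libraries labelled Mll1-/- lie above all 4 labelled Mll1+/- for Axin2, Nkd1, Notum, Wif1 and Dkk3, and the groups overlap for the other members.

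Axin2 (ENSMUSG00000000142, chr11:108920349-108950783 of mm10) is a scaffold of the β-catenin degradation complex. It was at 233, 216, 184 and 266 CPM in the libraries labelled Mll1-/-, and at 172, 182, 149 and 161 CPM in those labelled Mll1+/-. The groups did not overlap, but only the gap between 184 CPM in mouse J_7135 and 182 CPM in mouse J_7100 separated them, and with upper quartile scaling they overlapped (lowest library labelled Mll1-/- 176 CPM, highest of the others 182 CPM). The means were 225 ± 34.1 and 166 ± 14.5 CPM (SD, n = 4 each), with a log2 fold change of 0.44 (SE 0.13, edgeR adjusted p = 0.384). Without mouse J_7135 it was 0.52 (edgeR adjusted p = 0.165). Of the exonic bases of Axin2, 3.80% are shared with Gm11670 on the opposite strand, which had at most 12 counts in a library.

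Nkd1 (ENSMUSG00000031661, chr8:88521354-88594884) binds Dishevelled and limits the signal below the receptor. It was at 83.9, 52.7, 76.1 and 47.7 CPM in the libraries labelled Mll1-/-. In those labelled Mll1+/-, it was at 28.7, 26.9, 28.8 and 21.1 CPM. The lowest library of the first group thus lay well above the highest of the second, and mice J_7075 and J_7135 were highest. The log2 fold change was 1.31 (SE 0.22), with an edgeR adjusted p of 0.139. This is a ratio of 2.47 between means of 65.1 ± 17.6 and 26.3 ± 3.64 CPM (SD, n = 4 each). Nkd1 had the smallest SE relative to its fold change among the tested members, and it was the member with the smallest unadjusted p. In the fit limited to genes that reached 10 counts in each library its adjusted p was 0.0684, and in the fit without a filter it was 0.0557 (both edgeR), under the threshold of 0.1 in either case, where 0.260% and 0.117% of the genes of these fits were called.

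Rnf43 and Znrf3 are related ubiquitin ligases of the membrane that remove Frizzled receptors from the cell surface. Rnf43 was at 122, 139, 103 and 170 CPM in the libraries labelled Mll1-/-, and at 159, 135, 140 and 110 CPM in those labelled Mll1+/-. The groups overlapped almost completely (log2 fold change -0.03, SE 0.17, edgeR adjusted p = 0.980). Znrf3 was at 38.7, 49.5, 33.4 and 43.0 CPM in the libraries labelled Mll1-/- and at 31.9, 34.9, 18.9 and 32.1 CPM in the others, in the same order of mice. Only mouse J_7135 among the former lay below the highest of the latter. The Znrf3 log2 fold change was 0.48 (SE 0.22, edgeR adjusted p = 0.562), so the difference did not pass the test.

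Apcdd1, a membrane glycoprotein that binds Wnt ligands and Lrp receptors, was close to the detection limit. It had 8, 11, 20 and 18 counts in the libraries labelled Mll1-/-, and 6, 12, 0 and 7 counts in those labelled Mll1+/-. The groups overlapped, and a floor of 3 counts corresponded to 0.162 to 0.240 CPM in these libraries. The log2 fold change was 1.00 with an SE of 0.83 (edgeR adjusted p = 0.759), so that no difference was detected at these low counts.

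Notum (ENSMUSG00000042988, chr11:120653788-120661175 on the minus strand) is a secreted enzyme that removes the lipid from Wnt ligands and so inactivates them. It had 472, 217, 486 and 174 counts in the libraries labelled Mll1-/-, which is 27.8, 12.5, 26.2 and 11.4 CPM. In those labelled Mll1+/-, it had 15, 69, 41 and 15 counts, which is 0.895, 4.84, 3.28 and 0.966 CPM. The groups were far apart, and within each group the highest library exceeded the lowest by 2.44 times and 5.41 times, respectively. Mice J_7075 and J_7135 were the highest for Notum, as they were for Nkd1. The log2 fold change was 2.97 (SE 0.60), with an edgeR adjusted p of 0.195. The means were 19.5 ± 8.71 and 2.49 ± 1.92 CPM (SD, n = 4 each). The adjusted p was 0.0953 on genes that reached 10 counts in each library and 0.0702 without a filter (both edgeR).

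The Notum count carries a limit of annotation. Of its 2408 exonic bases, 38.1% are shared with the antisense genes Notumos and Myadml2os, the counting did not use strand, and reads on more than 1 gene were left out. Notumos had 37, 13, 0 and 47 counts in the libraries labelled Mll1-/- and 0, 3, 0 and 0 counts in those labelled Mll1+/-. Mouse J_7135, with 486 Notum counts, thus had no Notumos count. The level of Notum per length was divided by all 2408 bases, the shared ones included, and is therefore too low. On the shared bases, reads from Notum and from its antisense partners cannot be told apart, and the counts given here come from the remaining bases, where reads were assigned by position.

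Wif1, a secreted protein that binds Wnt ligands directly (ENSMUSG00000020218, chr10:121033960-121100650), was counted only in libraries labelled Mll1-/-, at a low level. It had 48, 25, 1 and 10 counts in the libraries labelled Mll1-/-, and 0 counts in each of the 4 libraries labelled Mll1+/-. The absence of overlap rested on the single count of mouse J_7135. The mean of 1.24 ± 1.20 CPM (SD, n = 4) was 24.5 times a floor of 3 counts over the whole Mll1+/- group (0.0508 CPM). Without mouse J_7135 it was 32.3 times this floor. The floor covers counting error only, and mouse J_7135 itself, at 0.0539 CPM, was near it. Wif1 did not pass the filter on low counts. The exact two-sided permutation test over the 8 libraries gave an unadjusted p = 0.0286, the smallest that 4 libraries against 4 allow. This p follows from the absence of overlap and adds nothing to it, and Axin2, Nkd1, Notum and Dkk3 had the same value.

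Dkk2 and Dkk3 belong to the Dickkopf family, of which Dkk2 binds Lrp receptors, while Dkk3 is a divergent member with a less settled place in the pathway. Dkk3 (ENSMUSG00000030772, chr7:112116017-112159057 on the minus strand) had 251, 139, 32 and 208 counts in the libraries labelled Mll1-/-, which is 14.8, 8.03, 1.73 and 13.6 CPM. In those labelled Mll1+/-, it had 8, 1, 21 and 1 counts, which is 0.477, 0.0701, 1.68 and 0.0644 CPM. Mouse J_7135 was by far the lowest of its group, and the groups were separated only by the gap between it and mouse J_7134, a gap that closed with upper quartile scaling (1.65 against 1.73 CPM). The log2 fold change of Dkk3 was the largest among the tested members, at 4.08, and so was its SE of 1.01 (edgeR adjusted p = 0.251). Without mouse J_7135 it was 4.44 (edgeR adjusted p = 0.122), and without mouse J_7134 it was 5.46 (edgeR adjusted p = 0.231). Dkk2 had 0, 4, 1 and 2 counts in the libraries labelled Mll1-/- and 0, 0, 0 and 2 in the others, at or near the floor of 3 counts, so no fold is given.

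Sp5 is a zinc finger transcription factor that represses other Wnt targets. It was at 38.4, 37.9, 19.2 and 35.8 CPM in the libraries labelled Mll1-/-, and at 37.3, 35.9, 25.5 and 29.0 CPM in those labelled Mll1+/-. Mouse J_7135 was the lowest of all 8, and the other 3 libraries of its label lay within the range of 35.8 to 38.4 CPM. The log2 fold change was 0.04 (SE 0.25, edgeR adjusted p = 0.978), and without mouse J_7135 it was 0.23 (edgeR adjusted p = 0.794). Sp5 and Axin2, the members whose promoter windows are printed above, are both transcriptional readouts of β-catenin, and of the members' windows that of Sp5 alone held the word CTTTGAT.

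**Figure D3:**
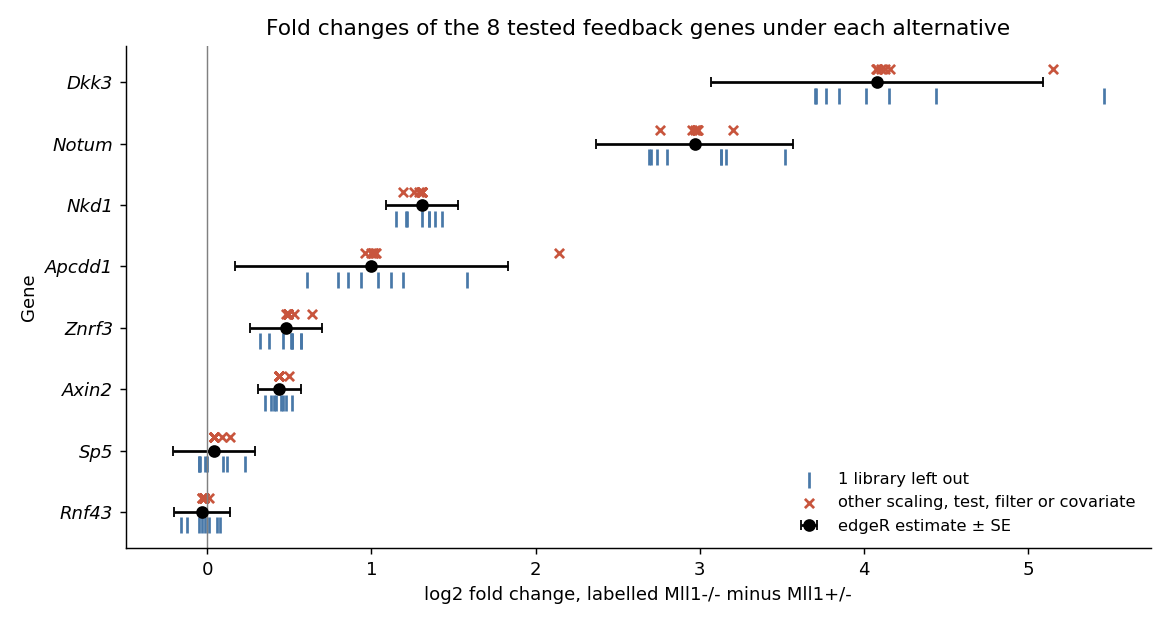
log2 fold change of the 8 tested feedback genes, libraries labelled Mll1-/- minus Mll1+/-, with its SE (black), the values with 1 library left out (blue ticks) and those under another scaling, test, filter or covariate (red crosses). Dkk3, Notum and Nkd1 lie above 1 under each alternative that tested them (Dkk3 and Apcdd1 were not tested in the fit with at least 10 counts in each library), and only Sp5 and Rnf43 cross 0.

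The mice fall into a pair of runs by animal number, each with 2 libraries of either label, namely mice J_7075 to J_7100 and mice J_7134 to J_7139. Differences within runs are given as means of log2(CPM + 0.25). For Nkd1 they were 1.25 in the earlier run and 1.28 in the later one, and for Notum 2.97 and 3.08. For Axin2 they were 0.34 and 0.52, and for Znrf3 0.39 and 0.62. Dkk3 and Wif1 differed more in the earlier run (4.53 and 3.19) than in the later one (2.75 and 1.07), where mouse J_7135 was low for both. Rnf43 had -0.17 and 0.09, Sp5 had 0.06 and -0.05, and Apcdd1 had -0.03 and 1.72. The interaction of genotype and run had edgeR adjusted p-values between 0.832 and 0.998 for the tested members, so none of these differences between runs passed the test.

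The members did not share 1 ranking of mice. Among the libraries labelled Mll1-/-, mouse J_7075 was highest for Nkd1, Notum, Dkk3, Wif1 and Sp5, and mouse J_7136 for Axin2, Rnf43 and Apcdd1. Mouse J_7135 was lowest for Axin2, Rnf43, Znrf3, Sp5, Dkk3 and Wif1, while mouse J_7136 was lowest for Nkd1 and Notum. The labels give no sex. The log2 ratio of Xist to Y-linked transcripts was -7.54, -6.39, 0.33 and 9.02 in the libraries labelled Mll1-/-. In the others it was 8.41, 8.44, -8.21 and 7.78, so the labels were not balanced in it. The value near 0 is that of mouse J_7135, which held both Xist and Ddx3y. With the ratio of Xist to Y-linked transcripts as a covariate the log2 fold changes were 1.19 for Nkd1, 2.76 for Notum, 4.13 for Dkk3 and 0.50 for Axin2 (edgeR adjusted p = 0.252, 0.290, 0.290 and 0.340).

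Stromal cells also express Wnt antagonists, and markers of other cell types were therefore read beside these values. Of 9 stromal markers, 8 (among them Col1a1, Col3a1, Dcn and Pdgfra) were under 2 CPM in every library, with sums of 0.917 to 3.34 CPM in the libraries labelled Mll1-/- and 1.26 to 2.06 CPM in the others. The exception was Vim, an intermediate filament gene of mesenchymal cells, with 44.2 to 115 CPM against 0.193 to 4.88 CPM (log2 fold change 4.48, SE 0.70, edgeR adjusted p = 0.108). Endothelial markers summed to 4.16 to 6.09 against 4.21 to 5.92 CPM, and immune markers to 1.24 to 6.24 against 3.04 to 6.48 CPM. Ptprc, which encodes the CD45 used in the sort, was under 2 CPM in every library.

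Markers of the epithelial types were read in the same way, and the summed stem cell genes did not overlap between the labels. The 9 stem cell genes summed to 11735 to 18507 CPM in the libraries labelled Mll1-/- and to 24116 to 28714 CPM in the others, a sum carried mostly by Olfm4 (12123 ± 2788 against 20678 ± 1700 CPM, SD, n = 4 each). Olfm4 and Slc12a2 were lower without overlap, as were 2.94% of all genes tested. The other 7 overlapped. Of these, Lgr5, Smoc2, Cd44 and Epcam had log2 fold changes of -0.06, 0.03, 0.16 and 0.16. Prom1, Ascl2 and Tnfrsf19 were lower, at -0.53, -0.4 and -0.21. Goblet cell genes summed to 641 to 1158 against 594 to 783 CPM, Paneth cell genes to 1325 to 2533 against 1958 to 4725 CPM, and enterocyte genes to 576 to 854 against 726 to 832 CPM. Enteroendocrine genes were at 3.21 to 11.2 against 8.56 to 82.4 CPM, and tuft cell genes at 3.08 to 9.18 against 2.51 to 3.36 CPM. These sums hold opposite shifts. Muc2, Spdef, Mmp7 and Vil1 were higher without overlap, as were 3.34% of all genes tested. Defa17, Itln1, Fabp2, Apoa1, Chga and Chgb were lower without overlap (2.94%). The goblet cell genes Zg16 and Spink4 had log2 fold changes of -4.03 and -0.54, with overlap. The part of these shifts in the values of the feedback genes was not tested.

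The feedback genes were set beside 6 other lists of the Wnt pathway. None of the members of these lists had an adjusted p under 0.1 (edgeR), where only 0.0851% of all genes tested did. The 8 tested feedback genes had a median log2 fold change of 0.74 (range -0.03 to 4.08), where the median of all genes tested was 0.01, and 7 of the 8 were above 0, as were 50.8% of all genes tested. The 8 include Dkk3, which passed the filter only through the libraries in which it was high. They also include Apcdd1, which was close to the detection limit (log2 fold change 1.00, SE 0.83). The median of 0.74 lies between Apcdd1 and Znrf3 (0.48). With at least 10 counts in every library, which left out Dkk3 and Apcdd1, the median was 0.46. The other lists were not read at that filter, so the medians are a description. Other Wnt antagonists had a median of 0.45 over 10 tested of 24 listed, the highest of the other lists. Among these, Dact1, a Dishevelled-binding antagonist, was lower without overlap, as were 2.94% of all genes tested (3.21 ± 1.49 against 6.17 ± 0.932 CPM, SD, n = 4 each, log2 fold change -0.94, edgeR adjusted p = 0.564). Igfbp4 and Shisa2 were the most abundant of this list per length, with log2 fold changes of 0.29 and -0.72 (edgeR adjusted p = 0.663 and 0.526).

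Ligands and their secretion factors were mostly too low to test (6 of 21, median log2 fold change -0.14). Wls, which carries Wnt ligands to the cell surface, had a log2 fold change of -0.22 and Wnt5b one of 0.23. Receptors and R-spondins had a median of -0.06 over 13 of 19. Lgr4, a receptor for R-spondins, was the member of this list that was lower without overlap (2.94% of all genes tested), at 132 ± 18.5 CPM in the libraries labelled Mll1-/- and 200 ± 33.8 CPM in the others (SD, n = 4 each, log2 fold change -0.60, SE 0.16, edgeR adjusted p = 0.274). Its relative Lgr5 was at 260 ± 19.9 and 271 ± 40.9 CPM (log2 fold change -0.06, edgeR adjusted p = 0.933).

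Genes of the degradation complex and the Dishevelled proteins had a median of 0.18 over 15 of 16, with 0.18 for Csnk1a1, the kinase that primes β-catenin, and -0.20 for Tnks2, a tankyrase that destabilises axins. Nuclear factors had a median of 0.10 over 13 of 15. Among these, Ctnnb1, which encodes β-catenin, was at 179 ± 17.9 and 167 ± 20.5 CPM (SD, n = 4 each, log2 fold change 0.10, edgeR adjusted p = 0.859), and Tcf7l2 had a log2 fold change of 0.51 (edgeR adjusted p = 0.604). Exon 3 of Ctnnb1 cannot be seen in counts over the whole gene.

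Other target genes of TCF factors had a median of 0.15 over 16 of 17, and 3 of them had every library labelled Mll1-/- above every other library, as had 3.34% of all genes tested. Mmp7, a matrix protease of Paneth cells, was at 303 ± 89.4 against 147 ± 11.6 CPM (SD, n = 4 each, log2 fold change 1.04, SE 0.19, edgeR adjusted p = 0.154). Ephb3, a receptor that positions cells in the crypt, had a log2 fold change of 0.87 and the cyclin gene Ccnd1 one of 0.62 (edgeR adjusted p = 0.217 and 0.365). Ascl2, a stem cell transcription factor and the most abundant gene of the list per length after Mmp7, had -0.40 (edgeR adjusted p = 0.630). The target genes thus had fold changes of both signs, and none of them passed the test, which only 0.0851% of all genes tested did.

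**Figure D4:**
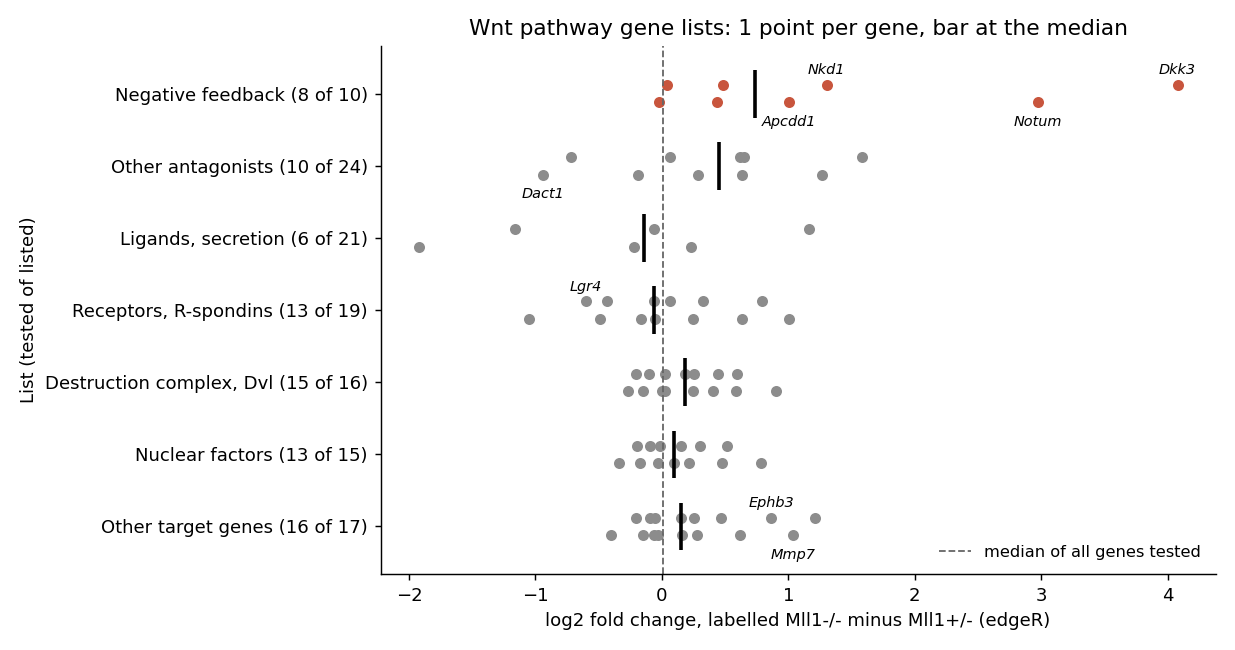
log2 fold change of each tested gene of 7 Wnt pathway lists, libraries labelled Mll1-/- minus Mll1+/-, with a bar at the median of the list and a dashed line at the median of all genes tested. Only Dkk3 and Notum of the feedback genes lie above 2, and the medians of the other lists lie between -0.14 and 0.45.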

How the data were processed

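RNA was sequenced with Smart-seq2, without molecular identifiers, from sorted Lgr5-GFP+ cells of 8 mice. The authors aligned reads to mm10 with GSNAP and deposited raw counts of uniquely mapped reads per gene (featureCounts 1.6.3, Ensembl release 92, strand not used). The second deposited table holds signal, counts divided by a size factor per library, and was used only to find the members. Genotypes were compared on the counts with edgeR 4.0.16 in R 4.3.3 (filterByExpr with at least 10 counts and 15 in total, TMM, robust quasi-likelihood, genotype alone, Benjamini-Hochberg adjusted p under 0.1). Each SE is the absolute log2 fold change over the square root of F. DESeq2 1.42.0, limma 3.58.1, other scalings and filters, a block of animal numbers, an Xist and Y-linked covariate and each library left out were alternatives. Scripts were tested on simulated data. Members and lists were chosen with earlier results of these data known. Named were all members, Kmt2a, Ctnnb1, and in each pathway list the genes past the threshold, those without overlap and the 2 most abundant per length. Marker genes were read from fixed lists, and those named singly were chosen after their values were seen. Floors cover counting error only. Figures were drawn with matplotlib 3.10.9.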

Additional observations from a re-analysis of the deposited data

Results flagged for a closer look

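Each member and Kmt2a was examined for a library far from the other 3 of its labelled genotype (Dixon's ratio above its 95% critical value) in 21 groups with any spread. Of these, 3 groups were marked, where chance marks about 1 in 20 groups of continuous values. Sp5 was at 19.2 CPM in mouse J_7135, below the other libraries labelled Mll1-/-. Kmt2a was at 64.7 CPM in mouse J_7100, above the other libraries labelled Mll1+/-. Dkk2 was at 0.129 CPM in mouse J_7139, which is 2 counts against 0 in the other libraries of that label. Beside libraries at 0, any count would have been marked, so this mark carries no information.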

How the results depend on the processing

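The number of genes called over the whole table was 14 (8 higher, 6 lower), and it moved to 406 with DESeq2, 103 with limma-voom, 47 without a filter, 34 with at least 10 counts in every library and 8 with upper quartile scaling (3 higher, 5 lower). It was 0 with the block of animal numbers or the Xist covariate, where 1642 and 1615 genes had an unadjusted p under 0.05, and 0 to 45 with 1 library left out, the 45 without mouse J_7135. The number of feedback genes called was 0 (4 at an unadjusted p under 0.05), against 3 with DESeq2 and 2 each with limma-voom, without a filter and with at least 10 counts in every library. With 1 library left out it stayed at 0. Their median log2 fold change of 0.74 was 0.46 with at least 10 counts in every library, which left out Dkk3 and Apcdd1, and 0.50 to 0.94 with 1 library left out. The number of members higher without overlap was 5 of 10, the untested Wif1 included, where 3.34% of all genes tested were so. It was 3 with upper quartile scaling and 5 to 7 with 1 library left out. The share over all genes was not read at these settings, so these counts are a description. The direction turned for Rnf43 with the Xist covariate (0.01) and, with 1 library left out, for Rnf43 (-0.16 to 0.08) and Sp5 (-0.05 to 0.23). Apcdd1 was at 2.14 with the Xist covariate. Without length, 6 of the 10 members took another place in the order of levels. The cause of these shifts was not tested. No paired analysis was possible because the replicate numbers follow accession order and the labels pair no mice.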
